A study of Arabidopsis thaliana with 27 samples.

Results

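The effect of severe heat stress on mature seeds was examined by comparing seeds that developed at 27 °C on average (day 28 °C, night 26 °C) with seeds that developed at 23 °C on average (day 24 °C, night 22 °C, the control). The libraries were chosen by their labels, which put 3 of the 27 libraries of the series in mature seeds at 27 °C and 3 in mature seeds at 23 °C, so that 6 of 27 libraries were compared. All of them came from whole seeds of Arabidopsis thaliana Columbia-0 (Col-0), the common laboratory wild type, without a mutation or transgene, and the plants entered their temperature at flowering. The other libraries held mature seeds at 25 °C and seeds at the heart and bent embryo stages at all temperatures. The replicates are described as biological, but the sources do not say whether plants or trays were separate, so the tests measure the spread between libraries. In the main fit this spread was estimated for each gene from all 27 libraries of all stages, not from the 6 compared libraries alone. A whole seed holds the embryo, the endosperm and the seed coat together, and for every gene below fewer cells of a type and less RNA per cell cannot be told apart.

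Maturation is the last phase of seed development, in which the embryo fills with storage proteins and oil, acquires desiccation tolerance under control of the hormone abscisic acid, loses its chlorophyll and becomes dormant. Heat in plants activates heat shock factors, transcription factors that bind repeats of the bases GAA and TTC in promoters and switch on chaperones, the proteins that hold or refold other proteins. The seed coat meanwhile deposits mucilage, flavonoids and suberin, a lipid polyester that limits the passage of water.

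Transcript abundance is given as normalised read count, the estimated count of a gene divided by the size factor of its library, and a change as the log2 fold change of 27 °C over 23 °C with the standard error (SE) of the fit. A gene was called higher or lower at an adjusted p under 0.05 (DESeq2, Benjamini-Hochberg over all genes tested, n = 3 per group). Total counts of the 6 libraries lay between 17779393 and 18414002, and Pearson's r of log2 expression between replicates, across genes, was 0.987 to 0.992. The label of the stage was checked on the 13 storage protein genes. In mature seeds they took 14.0 to 19.4% of all counts at 27 °C and 13.5 to 15.1% at 23 °C. In bent seeds they took 0.876 to 1.7% and 0.676 to 0.724%. This check separates mature from bent seeds only, and how far maturation had gone at harvest was not tested. Of 21445 genes tested, 3163 were higher (14.75%) and 3305 were lower (15.41%) at 27 °C in mature seeds. These 2 shares are the background for the counts of every gene list below. The median change of the called genes was small, 0.61 on the log2 scale for the higher and -0.51 for the lower. A change of at least 2-fold was reached by 922 higher and 663 lower genes, and one of at least 8-fold by 116 and 175. The libraries of the 2 temperatures did not overlap for 3114 of the higher and 3202 of the lower genes, and for 5382 and 5454 of all genes tested (50.5% together). Replicate 1 of heart seeds at 23 °C stood apart with 0.607% of its counts from storage protein genes, against 0.0101 and 0.0102% in its replicates. When it and replicate 3 of bent seeds at 23 °C were left out of the fit (the 2 libraries of other stages below), 3572 genes were higher and 3992 lower.

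The small heat shock proteins, chaperones that bind unfolding proteins without using ATP, were mostly higher at 27 °C. Of their 15 genes, 14 passed the filter on low counts, and 10 of these were higher and 0 lower at 27 °C, with a median change of 2.38 against 0 over all genes. The promoters of 3 of these genes or their regulators with matches to the heat shock element, and 1 without, are shown because they are the stretches to which heat shock factors are known to bind. They were chosen after the matches were seen. The sequences run from 5′ to 3′ up to the last base before the annotated gene start (RefSeq, TAIR10.1), and capitals mark every match to GAANNTTC or TTCNNGAA, 8 letters that hold 2 inverted units of the element, with overlapping matches joined. HSP17.4 lies on the minus strand and its stretch is chr3:16984868-16985117, AT1G53540 is on the plus strand with chr1:19980126-19980298, HSFA2 on the plus strand with chr2:11135466-11135623, and ATHSP22.0 on the plus strand with chr4:6370088-6370337. The stretches of AT1G53540 and HSFA2 were shortened to the bases that belong to no other annotated gene.
HSP17.4: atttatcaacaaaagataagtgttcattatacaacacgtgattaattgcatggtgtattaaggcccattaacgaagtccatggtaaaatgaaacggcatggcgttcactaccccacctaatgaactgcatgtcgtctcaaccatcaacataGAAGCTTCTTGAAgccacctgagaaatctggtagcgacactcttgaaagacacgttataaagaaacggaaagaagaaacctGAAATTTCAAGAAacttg
AT1G53540: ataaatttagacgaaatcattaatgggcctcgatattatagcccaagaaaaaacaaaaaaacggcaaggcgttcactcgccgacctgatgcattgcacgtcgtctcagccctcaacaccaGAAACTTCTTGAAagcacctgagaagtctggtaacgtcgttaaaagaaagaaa
HSFA2: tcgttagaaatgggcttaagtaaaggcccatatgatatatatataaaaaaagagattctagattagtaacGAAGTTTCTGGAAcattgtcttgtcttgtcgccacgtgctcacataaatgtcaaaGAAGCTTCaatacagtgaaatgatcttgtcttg
ATHSP22.0: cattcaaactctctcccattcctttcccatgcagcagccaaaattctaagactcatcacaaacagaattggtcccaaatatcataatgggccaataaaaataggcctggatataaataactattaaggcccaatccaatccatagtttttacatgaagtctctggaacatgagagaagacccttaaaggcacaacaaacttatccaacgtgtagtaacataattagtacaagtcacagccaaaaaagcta

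Within the 250 bases before the gene start, 6 of 14 small heat shock protein genes (42.9%) and 6 of 27 genes of large chaperones and their partners (22.2%) held such a match on either strand, which reads the same on both. Over all genes tested with a promoter in the annotation, 3363 of 21377 (15.73%) did. The share was 17.1% among the genes higher and 14.9% among those lower at 27 °C. It varied among the gene lists described below, also among those that did not mostly rise. It was 37.9% for DNA methylation (11 of 29), 36.4% for the mitotic cell cycle (4 of 11) and 30.8% for pollen markers (4 of 13). For storage proteins it was 7.69% (1 of 13) and for jasmonate 4.0% (1 of 25). A longer form with 3 units in alternating orientation was found in 2 of 14 small heat shock protein genes (14.3%) and in 88 of all 21377 promoters (0.412%). These matches describe letters in a window, and no binding was measured.

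Among the small heat shock proteins, HSP17.4 had 730.2, 550.1 and 699 normalised counts at 27 °C, against 57.4, 53.5 and 62.9 at 23 °C. ATHSP22.0, whose product is targeted to the endomembrane system and whose printed stretch held 0 matches, had 147, 84.3 and 115 normalised counts at 27 °C, against 8.37, 7.29 and 3.56 at 23 °C. AT5G51440, annotated as a mitochondrial form, had 192, 161 and 249.9 normalised counts at 27 °C, against 13.2, 12.2 and 20.2 at 23 °C, and HSP17.6A had 133, 87.9 and 156 normalised counts at 27 °C, against 17.9, 10.9 and 9.50 at 23 °C. Every library at 27 °C lay above every library at 23 °C for these 4 genes, and their log2 fold changes were 3.51 ± 0.80 (adjusted p 0.000122), 4.17 ± 0.99 (0.000249), 3.73 ± 0.59 (8.71e-09) and 3.30 ± 0.56 (1.31e-07). AT1G53540 was expressed at a lower level, with 48.9, 31.3 and 37.0 normalised counts at 27 °C, against 7.18, 8.51 and 4.75 at 23 °C. Its change in mature seeds was 2.52 ± 0.85 (adjusted p 0.0133, but 0.057 in the fit that left out replicate 3 at 23 °C and 0.0601 in that leaving out replicate 1 at 27 °C), beside -1.10 ± 0.77 in bent seeds, and the difference between the stages of 3.62 ± 1.14 had an adjusted p of 0.0314. HSP18.2 was not called, with a change of 1.66 ± 0.69. All 15 genes together took 0.00918, 0.0078 and 0.0109% of the counts at 27 °C and 0.00174, 0.00151 and 0.00149% at 23 °C, a ratio of 5.87 of the means, so they remained a minor part of the seed transcriptome. The exact two-sided permutation test gave p = 0.1, the smallest that 3 against 3 libraries allow.

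Heat shock factors, the regulators, moved less than the small chaperones. Of 21 genes 18 were tested, and 6 were higher and 0 lower (2 lower if replicate 3 of the 23 °C seeds was left out), with a median change of 0.26. HSFA2, which maintains the heat response in leaves, had 176, 148 and 249.9 normalised counts at 27 °C, against 55.0, 29.2 and 43.9 at 23 °C, a change of 2.16 ± 0.41 (adjusted p 2.36e-06) without overlap of the groups. HSF4 had 1422, 1334 and 1429 normalised counts at 27 °C, against 794, 700.2 and 702 at 23 °C (0.93 ± 0.18), and HSFA3, a later factor of the same cascade, had 108, 86.7 and 116 normalised counts at 27 °C, against 62.2, 54.7 and 66.5 at 23 °C (0.76 ± 0.21). The 2 groups were separate for both genes, although their changes were under 2-fold. By contrast, the constitutive factors were not called, with 0.25 ± 0.11 for HSF1 and 0.19 ± 0.12 for HSFA1D. HSFA9 (AT5G54070), known as a factor of seed maturation, was below the filter with 0 counts at 27 °C and 1 count at 23 °C over the 3 libraries.

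Large chaperones and heat-induced partners were mostly higher, 17 of 27 genes, with 1 lower and a median change of 0.50. Hop3, a co-chaperone that joins HSP70 and HSP90, had 1478, 1252 and 1501 normalised counts at 27 °C, against 165, 152 and 209 at 23 °C. AT5G48570, a peptidyl-prolyl isomerase of the FKBP type, had 1936, 1691 and 2179 normalised counts at 27 °C, against 329, 293 and 302 at 23 °C. Both were separate between the groups, with changes of 3.01 ± 0.29 (adjusted p 3.93e-23) and 2.65 ± 0.26 (9.81e-22). HSP90.1, the heat-inducible cytosolic HSP90, had 5131, 4494 and 5662 normalised counts at 27 °C, against 1276, 1310.4 and 1319.5 at 23 °C, and its relative HSP81-2, which is expressed without stress, changed by 0.34 ± 0.18 and was not called. MBF1C, a transcriptional coactivator of the heat response, had 767, 657 and 842 normalised counts at 27 °C, against 165, 123 and 198 at 23 °C (2.22 ± 0.39). HSP70 (AT3G12580) had 7637, 6448 and 7818 normalised counts at 27 °C, against 2966, 1941 and 2425 at 23 °C (1.58 ± 0.43). HSP101, the disaggregase needed for thermotolerance, had 2775, 2298 and 2738 normalised counts at 27 °C, against 1609.8, 1642 and 1493 at 23 °C, a smaller rise of 0.72 ± 0.22 (adjusted p 0.00534). The only gene of this list that fell was HSC70-1, a constitutive cytosolic HSP70, with 7431, 8372 and 9653 normalised counts at 27 °C, against 16351, 12952 and 12911 at 23 °C (-0.73 ± 0.21). Members of the HSP70 and HSP90 families share sequence, so the division of reads among them is uncertain. In the endoplasmic reticulum 5 of 16 chaperone genes and regulators were higher and 2 lower (0 or 1 lower when any 1 library was left out), among them ATERDJ3A with 1.26 ± 0.26 and SDF2 with 0.76 ± 0.16, whereas the abundant BIP1 and BIP2 were not called (0.30 ± 0.19 and 0.23 ± 0.20).

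**Figure D1:**
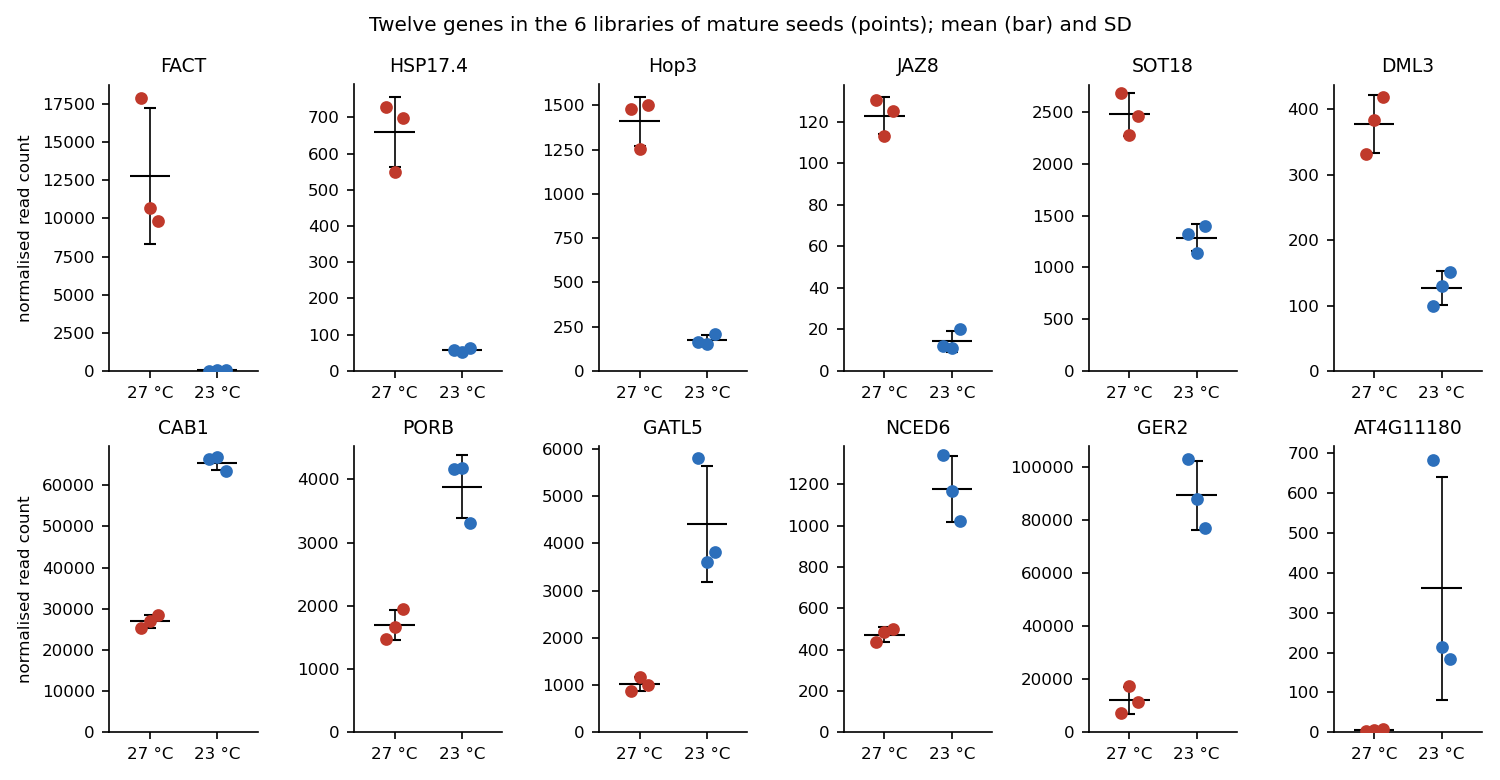
Normalised read count (vertical axis, from 0, its own scale in each panel) of 12 genes in mature seeds at 27 °C (red) and 23 °C (blue), with 1 point per library, the mean as a bar and the SD as the error. Points of the 2 temperatures do not overlap in any panel, and FACT reaches 17887 at 27 °C against at most 59.6 at 23 °C.

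The largest rises in mature seeds (mean normalised count 100 or above) were those of genes at low levels at 23 °C, with at most 153 normalised counts in any library. FACT (AT5G63560, chromosome 5, 25449311 to 25451419), which transfers caffeic acid to fatty alcohols in suberin-associated waxes, had 17887, 10651 and 9810.3 normalised counts at 27 °C, against 8.37, 59.6 and 51.1 at 23 °C, a change of 8.33 ± 0.99 (adjusted p 7.88e-15). The F-box gene AT2G39490 (chromosome 2, 16486902 to 16488645) had 841, 465 and 372 normalised counts at 27 °C, against 2.39, 0 and 0 at 23 °C, and it was at least 186-fold higher against a floor of 3 counts per library. Both lipid transfer protein genes among the 8 largest rises stood far above the control, with 9818, 5933 and 5685 normalised counts at 27 °C, against 3.59, 60.8 and 21.4 at 23 °C for AT3G58550 (chromosome 3, 21649364 to 21650347) and 8797, 6149 and 6740.3 normalised counts at 27 °C, against 37.1, 83.9 and 153 at 23 °C for AT2G18370 (chromosome 2, 7980532 to 7981868). Their changes were 7.97 ± 0.92 and 6.31 ± 0.78. GulLO2 (chromosome 2, 19207991 to 19211021), a gulonolactone oxidase, had 2819, 1643 and 1525 normalised counts at 27 °C, against 3.59, 6.08 and 15.44 at 23 °C. ABCA8 (chromosome 3, 17629530 to 17633942), a transporter of the ABC family, had 1861, 1077 and 958 normalised counts at 27 °C, against 15.5, 20.7 and 16.6 at 23 °C, and MYB67 (chromosome 3, 4043288 to 4044715), a transcription factor, had 720.1, 634 and 818 normalised counts at 27 °C, against 10.8, 4.86 and 32.1 at 23 °C. The lectin gene AT3G21380 (chromosome 3, 7528181 to 7530686) had 324, 243 and 222 normalised counts at 27 °C, against 3.59, 0 and 2.38 at 23 °C. Replicate 1 at 27 °C was the highest library for all of these genes except MYB67. Separate groups were a condition of their choice.

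By the difference of CPM (counts scaled to a common library total), the called genes without overlap that rose most were AT1G19900, annotated as a glyoxal oxidase, CYP78A9, a cytochrome P450 that promotes fruit and seed growth, AT3G04170, a cupin, AT2G41390 and AT1G11170. The last had 32471, 30975 and 29591 normalised counts at 27 °C, against 17599, 18037 and 17103 at 23 °C, a change of only 0.82 ± 0.26 at a high level. AT1G19900 had 51386, 42357 and 37178 normalised counts at 27 °C, against 10820, 10918 and 11804 at 23 °C, a change of 1.96 ± 0.60. CYP78A9 (chromosome 3, 22905867 to 22907958) had 27950, 19632 and 18081 normalised counts at 27 °C, against 1215, 641 and 1445 at 23 °C, a change of 4.31 ± 0.60 (adjusted p 7.09e-11). AT2G41390 had 20038, 16024 and 15030 normalised counts at 27 °C, against 1348, 1350.5 and 1864 at 23 °C (3.49 ± 1.08). AT1G19900, CYP78A9 and AT2G41390 were more than 3 times as abundant in every library at 27 °C as in any library at 23 °C. AT3G04170 had 20426, 17829 and 17942 normalised counts at 27 °C, against 1642, 814 and 1986 at 23 °C, but its adjusted p of 0.031 was 0.0534 to 0.111 when any 1 of the 6 libraries was left out.

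The largest falls were of other kinds. AT4G11180 (chromosome 4, 6820033 to 6820747), annotated as a dirigent protein, a family that steers the coupling of phenolic radicals, had 3.76, 4.81 and 8.10 normalised counts at 27 °C, against 683, 214 and 184 at 23 °C, a change of -6.01 ± 1.08 (adjusted p 6.94e-07). RLP55, a receptor-like protein, had 71.5, 232 and 168 normalised counts at 27 °C, against 2567, 1508 and 1244 at 23 °C. ATPMEPCRD, annotated as an invertase and pectin methylesterase inhibitor, had 380.1, 333 and 308 normalised counts at 27 °C, against 5205, 2622 and 2076 at 23 °C. The changes were -3.49 ± 0.32 for RLP55 and -3.28 ± 0.66 for ATPMEPCRD. AT5G63225, of the X8 domain family that binds callose, had 42.7, 139.6 and 91.4 normalised counts at 27 °C, against 1387, 799 and 814 at 23 °C (-3.45 ± 0.63), and GILT, a thiol reductase, had 48.9, 61.4 and 61.3 normalised counts at 27 °C, against 1002, 409.6 and 361 at 23 °C (-3.37 ± 0.40). Replicate 1 at 23 °C was the highest library for these 5 genes.

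Among the genes named by their falls were 4 germin-like genes, whose products are cupins of the cell wall. GER2 had 7164, 17389 and 11512 normalised counts at 27 °C, against 103010, 87733 and 77107 at 23 °C, which is a change of -2.89 ± 0.29 (adjusted p 1.06e-20), and AT5G39160 had 4761, 10163 and 6964 normalised counts at 27 °C, against 54727, 46470 and 41142 at 23 °C (-2.70 ± 0.27). AT5G39120 had 5.02, 31.3 and 20.8 normalised counts at 27 °C, against 252, 266 and 201 at 23 °C (-3.65 ± 0.54), and AT5G39110 had 12.5, 46.9 and 12.7 normalised counts at 27 °C, against 453, 137 and 238 at 23 °C (-3.52 ± 0.71). All libraries at 27 °C were below those at 23 °C for the 4 genes. The genes belong to 1 cluster of closely similar copies on chromosome 5, so the division of reads between them is uncertain and the 4 values are not independent. In bent seeds the same contrast gave 3.64 ± 0.58 for AT5G39120 and 2.43 ± 0.72 for AT5G39110, a rise, and 0.19 ± 0.29 for GER2 and 0.04 ± 0.27 for AT5G39160. The difference between the stages, mature minus bent, was -7.29 ± 0.79 (adjusted p 4.72e-17), -5.95 ± 1.01 (5.51e-07), -3.08 ± 0.41 (2.66e-11) and -2.74 ± 0.38 (2.53e-10) for these genes in that order. Further genes that fell by large counts were AT5G38160, a lipid transfer protein, with 51692, 67443 and 62763 normalised counts at 27 °C, against 130320, 104550 and 101380 at 23 °C, and AT1G62060, with 19880, 31346 and 27168 normalised counts at 27 °C, against 125880, 101730 and 95450 at 23 °C. The adjusted p of AT1G62060 was 0.0172, and leaving out the first replicate of either temperature gave 0.0777 (27 °C) and 0.0709 (23 °C).

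Genes of suberin, the polyester of the outer seed coat, were higher in 10 of the 21 members tested of 22, with 1 lower and a median change of 0.57. FAR4, which reduces fatty acids to the alcohols of suberin waxes, had 3039.9, 2021 and 1720.1 normalised counts at 27 °C, against 99.3, 55.9 and 95.0 at 23 °C. FAR5, of the same family, had 292, 319 and 392.1 normalised counts at 27 °C, against 57.4, 52.3 and 58.2 at 23 °C. CYP86A1, which hydroxylates the fatty acid chains, had 2217, 2533 and 2899.9 normalised counts at 27 °C, against 712, 456 and 698 at 23 °C. The groups did not overlap, and the changes were 4.76 ± 0.69, 2.58 ± 0.52 and 2.04 ± 0.64. FAR1 (1.98 ± 0.47), CYP86B1 (1.42 ± 0.33), the exporter ABCG2 (1.52 ± 0.42) and the elongase KCS1 (0.89 ± 0.19) rose as well. The acyltransferase GPAT5 was called with 1.06 ± 0.42 (adjusted p 0.0418), but when any 1 library was left out its adjusted p was 0.0593 to 0.157. MYB107, a factor that activates suberin genes in the seed coat, moved the other way with 408, 501 and 425 normalised counts at 27 °C, against 1324, 1236 and 1014 at 23 °C (-1.42 ± 0.31, adjusted p 4.45e-05). The 22 genes together took 0.316 to 0.318% of the counts at 27 °C and 0.169 to 0.179% at 23 °C (ratio 1.82, exact permutation p = 0.1, the smallest possible).

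The same genes responded differently at the bent stage. There 17 suberin genes were higher and 1 lower at 27 °C, with a median change of 3.72, and for 11 genes the effect of 27 °C was smaller in mature than in bent seeds by the interaction test. CYP86A1 changed by 6.85 ± 0.70 in bent seeds, and the difference, mature minus bent, was -4.81 ± 0.95 (adjusted p 3.03e-05). For FAR5 the bent value was 6.30 ± 0.98 and the difference -3.72 ± 1.11 (0.0197), and for GPAT5 they were 5.50 ± 0.48 and -4.44 ± 0.64 (8.87e-10). RWP1, which attaches ferulic acid to suberin, rose by 4.204 ± 0.42 in bent seeds and changed by -0.12 ± 0.42 in mature seeds. MYB107 reversed, with 2.66 ± 0.32 in bent and -1.42 ± 0.31 in mature seeds (difference -4.08 ± 0.44, adjusted p 2.34e-17). MYB9, its close relative, changed by 5.07 ± 0.52 and -0.14 ± 0.49 (difference -5.21 ± 0.72, 1.29e-10). FACT and FAR4, with the largest rises of the list in mature seeds, were not among the 11: their differences were 2.77 ± 1.44 (adjusted p 0.313) and -1.47 ± 1.11 (0.548).

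**Figure D2:**
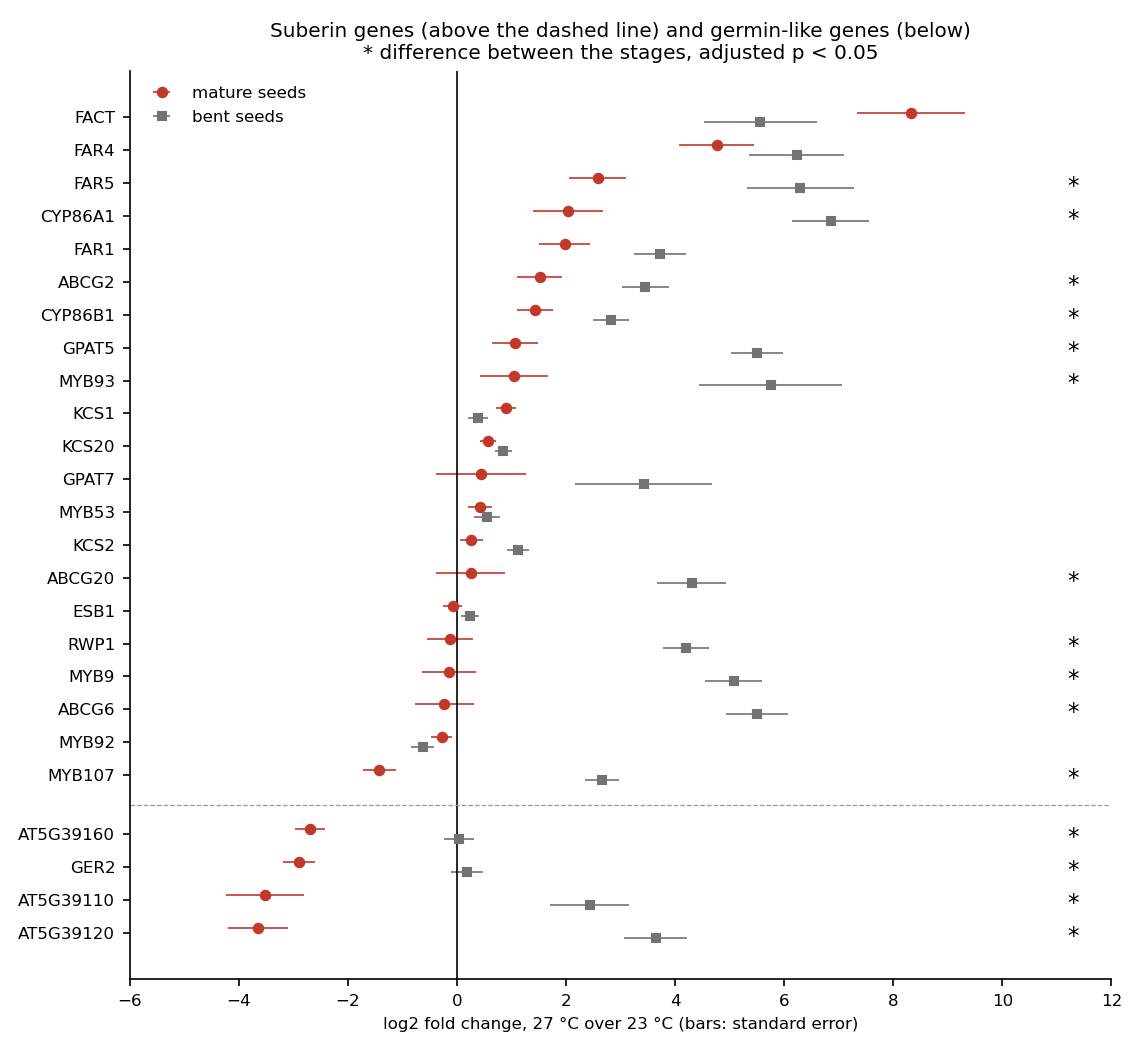
Log2 fold change of 27 °C over 23 °C (horizontal axis, bars: standard error) in mature seeds (red circles) and bent seeds (grey squares) for the 21 suberin genes tested and 4 germin-like genes. An asterisk marks genes whose 2 stages differ at an adjusted p under 0.05, and the grey squares of most suberin genes lie right of the red circles, while FACT and FAR4 do not carry the mark.

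Photosynthesis genes fell together in mature seeds. Of 41 genes of antennae, photosystem subunits and Rubisco, 40 were lower and 0 higher at 27 °C, with a median change of -0.69, and the remaining gene RBCS1B changed by -0.32 ± 0.27. CAB1, a chlorophyll a/b binding protein of photosystem II, had 25267, 27050 and 28544 normalised counts at 27 °C, against 66267, 66910 and 63338 at 23 °C, a change of -1.28 ± 0.18 (adjusted p 5.86e-11). LHB1B1 showed the largest change at a low level, with 6.27, 12.04 and 23.1 normalised counts at 27 °C, against 74.2, 66.9 and 84.3 at 23 °C (-2.43 ± 0.45). PSBO2, a subunit of the oxygen-evolving complex, had 2934, 3455 and 3508 normalised counts at 27 °C, against 6735, 7093 and 6618 at 23 °C (-1.05 ± 0.15), and RBCS3B, a small subunit of Rubisco, had 945, 791 and 1149 normalised counts at 27 °C, against 1568, 1975 and 2431 at 23 °C (-1.05 ± 0.24). These genes did not overlap between the groups. The 41 genes took 1.15, 1.29 and 1.37% of the counts at 27 °C and 2.06, 2.13 and 2.07% at 23 °C, and at 25 °C they took 1.6, 2.04 and 2.05%.

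Chlorophyll synthesis moved with them, with 10 of 10 tested genes lower and a median of -0.75. PORB, which makes chlorophyllide in the light, had 1480.4, 1666 and 1958 normalised counts at 27 °C, against 4162, 4183 and 3314 at 23 °C (-1.19 ± 0.16), and CHLM, the methyltransferase of the pathway, had 1083, 1146 and 1189 normalised counts at 27 °C, against 1893, 2063 and 2008 at 23 °C (-0.80 ± 0.11). HEMA1, the entry enzyme, changed by -0.90 ± 0.12. Chlorophyll breakdown did not mirror this: of 7 genes 1 was lower, NOL (-0.43 ± 0.08), and the magnesium dechelatase NYE1 was not called (0.12 ± 0.17). In bent seeds 39 of the 41 photosystem genes and 10 of the 10 chlorophyll synthesis genes were lower as well, with medians of -0.92 and -0.75. Among the photosystem promoters, GATAAG was found in 10 of 41 (24.4%) and CACGTG in 7 of 41 (17.1%), against 12.5% and 7.34% of all promoters. Of the 10 chlorophyll synthesis promoters, 0 held GATAAG and 2 held CACGTG. Shares in other lists varied widely. GATAAG was in 5 of 18 heat shock factor (27.8%) and 0 of 17 flavonoid promoters, and CACGTG in 8 of 13 storage protein (61.5%) and 0 of 11 cell cycle promoters.

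**Figure D3:**
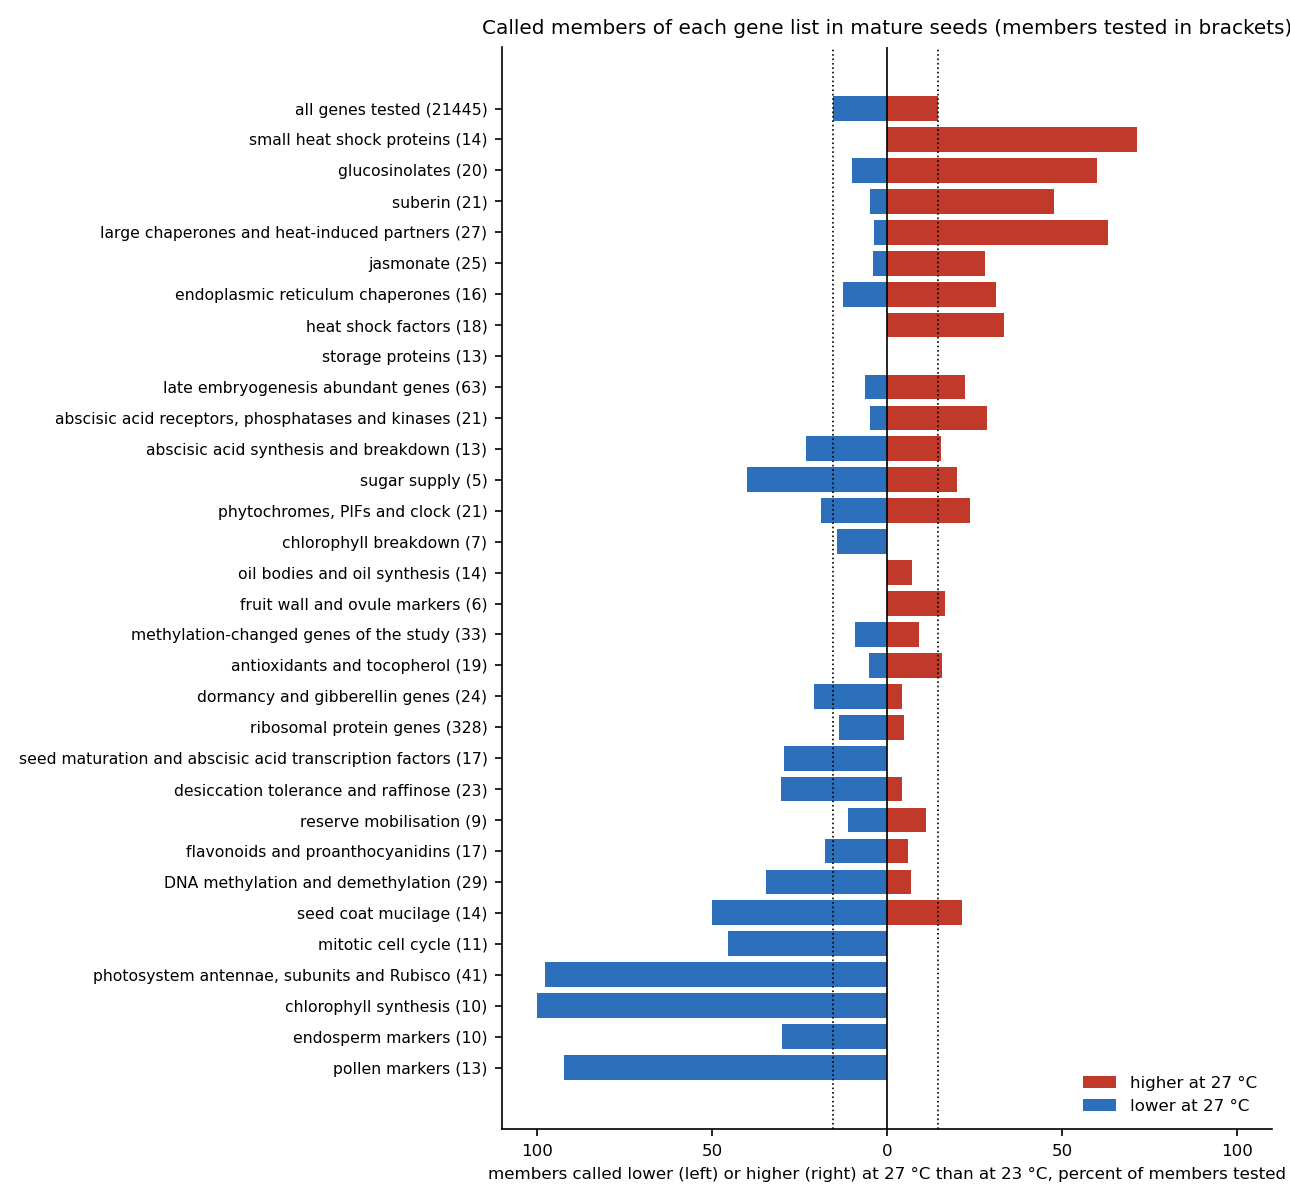
Percent of the tested members of each gene list that were called higher (red, right) or lower (blue, left) at 27 °C than at 23 °C in mature seeds, with the number tested in brackets and dotted lines at the 14.75% and 15.41% of all genes. Small heat shock proteins reach 10 of 14 on the right, and chlorophyll synthesis (10 of 10), photosystem genes (40 of 41) and pollen markers (12 of 13) fill the left.

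Glucosinolates are sulphur-rich defence compounds of the cabbage family that are stored in the seed. Of 22 genes of their synthesis, transport and breakdown 20 were tested, and 12 were higher and 2 lower, with a median change of 0.98. MYB29, a regulator of the methionine-derived branch, had 37.6, 30.1 and 34.7 normalised counts at 27 °C, against 1.196, 7.29 and 15.44 at 23 °C (2.095 ± 0.51). CYP79F2, which makes the first committed intermediate, had 1701, 1460.1 and 1562 normalised counts at 27 °C, against 649, 600.5 and 638 at 23 °C (1.32 ± 0.32), and SOT18, which adds the sulphate group at the last step, had 2687, 2279 and 2463 normalised counts at 27 °C, against 1320.4, 1139 and 1398 at 23 °C (0.95 ± 0.23). SOT17 and CYP83B1 rose by 1.45 ± 0.40 and 1.43 ± 0.24. The change of CYP79F1, 1.22 ± 0.43 with an adjusted p of 0.0197, was no longer called in 4 of the 6 fits without 1 library (adjusted p 0.0526 to 0.0758, without replicate 1 at 27 °C or any replicate at 23 °C). The transporters split, with GTR2 at 2955, 2512 and 2619 normalised counts at 27 °C, against 1104, 1324 and 1325 at 23 °C (1.11 ± 0.15) and GTR1 lower with -0.67 ± 0.10. TGG2, a myrosinase that cleaves glucosinolates, was lower with -1.10 ± 0.24.

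Jasmonate, the wound and defence hormone, showed 7 of 25 genes higher and 1 lower. JAZ8, a repressor of jasmonate signalling, had 130.5, 113 and 125 normalised counts at 27 °C, against 11.96, 10.9 and 20.2 at 23 °C, a change of 3.09 ± 0.36 (adjusted p 3.63e-15) without overlap. JAZ3 and JAZ1 rose by 1.04 ± 0.23 and 0.99 ± 0.18, and LOX1, a lipoxygenase, had 6243, 4894 and 5528 normalised counts at 27 °C, against 2736, 2725 and 3669.9 at 23 °C (0.87 ± 0.19). LOX4 was lower with -0.96 ± 0.35 in mature seeds, a call lost in 4 of the 6 fits without 1 library (adjusted p 0.0694 to 0.125, without replicates 1 and 2 at 23 °C and replicates 2 and 3 at 27 °C). It was higher with 1.97 ± 0.33 in bent seeds, and the difference of -2.93 ± 0.48 had an adjusted p of 1.60e-07.

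**Figure D4:**
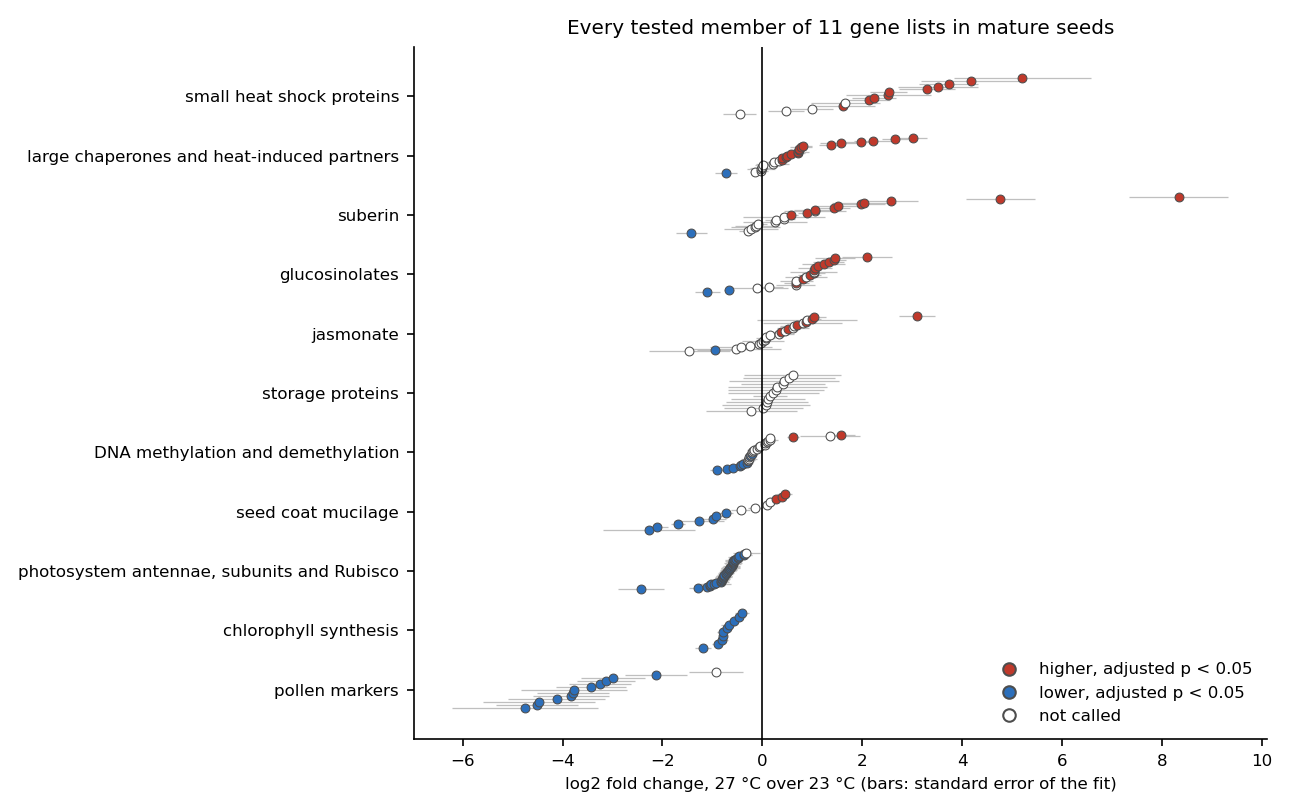
Log2 fold change of 27 °C over 23 °C in mature seeds (horizontal axis, bars: standard error of the fit) for every tested member of 11 gene lists, with red for higher, blue for lower and white for not called. Storage proteins are all white, whereas all 10 chlorophyll synthesis genes are blue.

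Storage proteins and oil genes, which make up the bulk of the maturing seed, were seldom called. Of 13 storage protein genes 0 were called in either direction (DESeq2), 0 had an unadjusted p under 0.05, and the edgeR test called 0. Both tests estimate the spread from all 27 libraries of all stages, so they are not separate evidence. A fit to the 6 libraries alone called 5 storage protein genes higher. In the main fit 12 of the 13 had a positive change. CRU3, a cruciferin, had 1023700, 721300 and 617740 normalised counts at 27 °C, against 702460, 796780 and 751800 at 23 °C, a change of 0.07 ± 0.88 with an adjusted p of 0.978, and the groups overlapped. Replicate 1 at 27 °C was the highest library, and without it the change was -0.16. Of 14 oil genes 1 was higher, the desaturase FAD3 (0.57 ± 0.18, with an adjusted p of 0.101 or 0.0529 if the first replicate of 27 °C or of 23 °C was left out), and the oleosin genes OLEO1 and OLEO2 were not called (0.22 ± 0.72 and 0.30 ± 0.65). The fit to the 6 libraries alone called 5 oil genes higher and 2 lower.

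Of 17 transcription factors that direct maturation, 0 were higher and 5 lower. ABI3, the master regulator of maturation, had 5180.2, 4563 and 4176 normalised counts at 27 °C, against 5034, 5113 and 4875 at 23 °C (-0.11 ± 0.21, adjusted p 0.744), and ABI5 had 272, 252 and 246 normalised counts at 27 °C, against 202, 284 and 226 at 23 °C (0.11 ± 0.15, 0.614). Neither was called. NF-YB6, also known as L1L, a subunit of the CCAAT-binding factor active in embryos, had 1664, 2036 and 2059 normalised counts at 27 °C, against 5015, 4766 and 4417 at 23 °C, a change of -1.30 ± 0.23 (adjusted p 3.43e-07) without overlap. ABF1 and ABF2, factors of the abscisic acid response, fell by 0.74 and 0.73 on the log2 scale. The 5 lower genes became 3 without replicate 1 at 27 °C.

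Of 13 genes of abscisic acid synthesis and breakdown 2 were higher and 3 lower, which is close to the 14.75% and 15.41% of all genes. Changes in this list ranged from -1.31 to 5.56. The synthesis gene ABA3 was higher, with a change of 0.41, and was called in all 6 fits without 1 library. ABA2 and ABA4 were lower, with -0.28 and -0.34, and were called in 2 and 3 of these fits. NCED6, which cleaves carotenoids in the endosperm at the rate-limiting step, had 435, 484 and 502 normalised counts at 27 °C, against 1341, 1169 and 1025 at 23 °C (-1.31 ± 0.15, adjusted p 1.41e-16), against 0.01 ± 0.15 in bent seeds and a difference of -1.33 ± 0.21 (4.65e-08). NCED9, the other seed form, was not called (-0.66 ± 0.55). Of 21 receptors, phosphatases and kinases 6 were higher and 1 lower. ABI2, a phosphatase that restrains the signal, rose by 1.03 ± 0.16 and the receptor PYR1 by 0.82 ± 0.13, while HAI1, a phosphatase of the same clade, had 5049.7, 5435 and 5467 normalised counts at 27 °C, against 10189, 11154 and 8854 at 23 °C (-0.92 ± 0.14). Without 1 library the 6 higher became as few as 3 (without replicate 1 at 27 °C), and the 3 lower synthesis genes became 1 (without replicate 2 at 23 °C or replicate 3 at 27 °C).

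Dormancy and gibberellin genes gave 1 higher and 5 lower of 24 (4.17% and 20.8%, against 14.75% and 15.41% of all genes). DOG1, the main quantitative regulator of dormancy, had 1764, 1331 and 1217 normalised counts at 27 °C, against 1027, 1124 and 972 at 23 °C, and its change of 0.47 ± 0.75 (adjusted p 0.696) was not called although the groups were separate. GA3OX1, which makes active gibberellin, changed by -1.05 ± 0.27 (adjusted p 0.00079), the receptor GID1A by -0.63 ± 0.11 and the synthesis gene GA20OX2 by 0.78 ± 0.15. PIL5, a phytochrome-interacting repressor of germination, changed by -0.63 ± 0.19, and without replicate 3 at 27 °C its adjusted p was 0.067. The 5 lower genes became 3 when any 1 of the libraries at 27 °C was left out, and the 1 higher gene became 2 with edgeR, library totals or a replicate block, 3 when the 2 libraries of other stages were left out or only mature seeds were fitted, and 5 in the fit to the 6 libraries alone. DOG1 was called in that last fit only, 1 of 19 alternatives, some of which only apply a stricter threshold to the same fit.

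Desiccation tolerance and raffinose genes were lower in 7 and higher in 1 of 23 tested. EM6 (AT2G40170), of the same list, was below the filter, with 9 counts at 27 °C and 29 at 23 °C over the 3 libraries. SIP1, a raffinose synthase, had 82.8, 92.7 and 112 normalised counts at 27 °C, against 221, 243 and 222 at 23 °C (-1.25 ± 0.26), and ERD10, a dehydrin, had 1393, 1572 and 1653 normalised counts at 27 °C, against 3082, 2789.8 and 2779 at 23 °C (-0.91 ± 0.17). The groups were separate for both. STS, which makes stachyose, was the higher gene with 2739, 1998 and 1756 normalised counts at 27 °C, against 1203, 1374 and 1249 at 23 °C (0.76 ± 0.25), and it differed from bent seeds by 1.19 ± 0.35 (adjusted p 0.0176), although without replicate 1 at 27 °C its adjusted p in mature seeds was 0.119. The wider family named late embryogenesis abundant in the annotation gave 14 higher and 4 lower of 63. AT2G23110, annotated as a group 6 member, had 104, 78.2 and 55.5 normalised counts at 27 °C, against 2.39, 13.4 and 8.31 at 23 °C (3.31 ± 0.78, adjusted p 0.000219). AT1G17620, a glycoprotein of the NDR1-like branch rather than a desiccation protein, had 2316, 1822 and 2052 normalised counts at 27 °C, against 376, 473 and 498 at 23 °C (2.20 ± 0.23). The 14 became 9 without replicate 2 at 23 °C or with a replicate block, and the 4 became 7 when the 2 libraries of other stages were left out.

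In the seed coat, 7 of 14 mucilage genes were lower and 3 higher. GATL5, a glycosyltransferase of pectin synthesis, had 883, 1171 and 992 normalised counts at 27 °C, against 5808, 3598 and 3808 at 23 °C (-2.12 ± 0.23). MUM2, a galactosidase that makes mucilage able to swell, had 585, 634 and 626 normalised counts at 27 °C, against 2226, 1936 and 1785 at 23 °C (-1.69 ± 0.15), and MUM4, a rhamnose synthase, changed by -0.99 ± 0.26. All were separate between the groups. CESA5, which makes the cellulose of mucilage, was among the higher genes with 4555, 4035 and 4043 normalised counts at 27 °C, against 3314, 3169 and 3132 at 23 °C (0.39 ± 0.11), and its difference from bent seeds was 0.94 ± 0.15 (adjusted p 1.08e-07). Flavonoid and proanthocyanidin genes gave 1 higher and 3 lower of 17, and TT8, their bHLH regulator, had 1229.5, 1475 and 1344 normalised counts at 27 °C, against 2176, 2349.7 and 2099 at 23 °C (-0.71 ± 0.10). Without replicate 1 at 23 °C the counts were 3 higher and 1 lower.

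The study turned to genes of DNA methylation, and 29 of these were tested in mature seeds, with 2 higher, 10 lower and a median of -0.21. ROS1, which removes methylated cytosine and is named DML1 in the annotation, had 5392, 5162 and 5042 normalised counts at 27 °C, against 5056, 6959 and 5587 at 23 °C, a change of -0.17 ± 0.14 (adjusted p 0.354), and the groups overlapped. In bent seeds the change of ROS1 was -0.70 ± 0.14. The paper reports ROS1 as downregulated under severe stress at every stage. It also compares ROS1 in TPM, counts scaled for transcript length, by a two-way analysis of variance. That measure and test differ from those used here. Here ROS1 was not called in mature seeds, in the main fit or in any of the 6 fits without 1 library. The other alternatives did not call it either, but some of them only apply a stricter threshold to the same fit. CMT3, the methyltransferase of CHG sites, had 287, 296 and 368 normalised counts at 27 °C, against 321, 276 and 266 at 23 °C, a change of 0.14 ± 0.17 (0.585), again with overlap. DML3, a demethylase of the same family as ROS1, was higher with 331, 384 and 419 normalised counts at 27 °C, against 99.3, 130.1 and 151 at 23 °C (1.58 ± 0.27, adjusted p 1.45e-07), and the groups were separate. In bent seeds it changed by 3.09 ± 0.36, and the difference of -1.52 ± 0.45 had an adjusted p of 0.0177. AGO6, an Argonaute of RNA-directed methylation, had 179, 184 and 227 normalised counts at 27 °C, against 402, 372 and 341 at 23 °C (-0.92 ± 0.14), and the remodellers CHR40 and DRD1 of the same pathway fell by 0.71 and 0.60. NRPD1A, the largest subunit of RNA polymerase IV, rose by 0.61 ± 0.11, and DRM2, the methyltransferase at the end of the pathway, changed by -0.43 ± 0.08. Of 44 genes that the study named for changed methylation, 33 were tested and 3 were higher and 3 lower, or 0 higher and 1 lower if replicate 1 of the 27 °C seeds was left out, and 1 higher if any replicate of the 23 °C seeds was. That list was drawn partly from the same material and is not independent evidence.

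Of 21 genes of phytochrome signalling and the circadian clock, 5 were higher and 4 lower (23.8% and 19.0%, against 14.75% and 15.41% of all genes). CCA1, a morning gene of the clock, had 316, 326 and 305 normalised counts at 27 °C, against 118, 115 and 105 at 23 °C (1.49 ± 0.20, adjusted p 6.59e-12), and its partner LHY changed by 1.09 ± 0.21 here and by 2.52 ± 0.21 in bent seeds. PIF4, the factor of growth in warmth, had 61.5, 86.7 and 96.0 normalised counts at 27 °C, against 188, 241 and 177 at 23 °C (-1.31 ± 0.26). TOC1, an evening gene, changed by -0.38 ± 0.09. The time of day of harvest is not given in the sources used here, and its part in the clock values was not tested. The 4 lower became 2 without replicate 2 at 23 °C or at 27 °C.

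Of 19 antioxidant and tocopherol genes 3 were higher and 1 lower (2 when replicate 1 of the 23 °C seeds was left out). The shares of 15.8% and 5.26% compare with 14.75% and 15.41% of all genes, so the higher share is close to background. AOX1A, the alternative oxidase of mitochondria, had 691, 551 and 521 normalised counts at 27 °C, against 208, 244 and 268 at 23 °C (1.29 ± 0.27), and the 1 lower gene, CSD2, a superoxide dismutase of the chloroplast, had 1273, 1372 and 1462 normalised counts at 27 °C, against 2677, 2462 and 2116 at 23 °C (-0.82 ± 0.15). APX2, a heat-inducible ascorbate peroxidase, had 6.27, 10.8 and 11.6 normalised counts at 27 °C, against 0, 0 and 0 at 23 °C, at least 3.19-fold higher against the floor of 3 counts per library. Counts at mitochondrial loci took 0.0104, 0.00885 and 0.0103% of the libraries at 27 °C and 0.00206, 0.00279 and 0.00322% at 23 °C (ratio 3.66, exact permutation p = 0.1). Those at chloroplast loci took 0.00855, 0.00734 and 0.00763% and 0.00399, 0.00437 and 0.00817% (exact permutation p = 0.3). The libraries were enriched for messenger RNA, and the part of RNA quality in these shares was not tested.

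Among mitotic cell cycle genes 5 of 11 were lower and 0 higher. SYP111, a syntaxin of the cell plate, had 641, 832 and 864 normalised counts at 27 °C, against 1740.2, 1343 and 1375 at 23 °C (-0.93 ± 0.24), and the cyclin CYCB1;1 had 61.5, 74.6 and 89.1 normalised counts at 27 °C, against 175, 112 and 138 at 23 °C (-0.91 ± 0.23). The ribosomal protein list took all nuclear genes so described in the annotation, including chloroplast forms such as PRPL35 and PSRP3/2. Of 328 tested, 16 were higher and 45 lower (4.88% and 13.7%, against 14.75% and 15.41% of all genes), with a median of -0.13. The lower count depended on the libraries in the fit, with 22 without replicate 1 at 27 °C, 94 in the fit to the mature libraries of all temperatures, 114 in the fit to the 6 libraries alone and 134 when the 2 libraries of other stages were left out. The higher genes numbered 8 to 10 when any 1 library other than replicate 3 at 27 °C was left out, and 9 in the fit to the 6 libraries.

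Markers of other tissues were followed beside these results. Pollen markers, genes of pectin modification and cell walls that are typical of pollen and its tube, were lower in 12 of 13 genes tested, with a median change of -3.77. VGD1, a pectin methylesterase of the pollen tube, had 15.1, 10.8 and 20.8 normalised counts at 27 °C, against 76.5, 250.4 and 317 at 23 °C (-3.78 ± 0.72, adjusted p 3.37e-06), and sks13 had 41.4, 18.1 and 34.7 normalised counts at 27 °C, against 112, 329 and 454 at 23 °C (-3.25 ± 0.62). The 14 markers summed to 7.08, 5.68 and 9.72 CPM at 27 °C, against 21.7, 71.0 and 85.5 at 23 °C, where replicate 1 was lower than the others. At 25 °C they summed to 7.85, 28.8 and 3.5. VGD1 is thus both a leading lower gene and a pollen marker, and the part of carried-over pollen in the falls of other genes was not tested.

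Endosperm markers summed to 8351, 7647 and 7863 CPM at 27 °C and 8778, 8519 and 7987 at 23 °C, nearly all of it from EPR1, an extensin of the endosperm at maturity (-0.09 ± 0.57, not called). ALE1, a subtilase by which the endosperm shapes the embryo surface, had 71.5, 146 and 126 normalised counts at 27 °C, against 681, 371 and 389.6 at 23 °C (-2.07 ± 0.26), and the sucrose transporter SUC5 had 252, 348 and 352 normalised counts at 27 °C, against 1251, 917 and 829 at 23 °C (-1.65 ± 0.16). RGE1, a regulator of ALE1, changed by -0.88 ± 0.20. Of the 10 endosperm markers tested only these 3 were called, all lower, and 2 of the 10 had a positive change. MEA went the other way without being called, with 7.3, 8.27 and 8.49 CPM at 27 °C, against 3.96, 5.84 and 6.88 at 23 °C. A more negative effect in mature than in bent seeds was found for 4 of the 10 markers. FIS2 and WRKY10, which define the early endosperm, were close to 0: FIS2 had 1 count at 27 °C and 8 at 23 °C over 3 libraries, and WRKY10 had 1 and 2. Fruit wall and ovule markers summed to 296.6 to 326.6 CPM at 27 °C and 231.0 to 248.0 at 23 °C (ratio 1.31), with 1 of 6 genes called, STK, a factor of the ovule and seed coat, at 3741, 3605 and 3528 normalised counts at 27 °C, against 1816, 1798 and 1862 at 23 °C (0.99 ± 0.16). The fruit wall markers SHP1 and SHP2 were not called (-0.19 ± 0.17 and -0.15 ± 0.15).

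The effect of 27 °C in mature seeds was set against that in the 2 earlier stages by interaction tests. It differed from that in bent seeds for 1179 genes (5.5% of those tested, 476 with a more positive and 703 with a more negative effect in mature seeds), and from that in heart seeds for 3201 genes (14.9%, 1382 and 1819). Without the 2 libraries of other stages the counts were 1230 and 4255. Of the 3163 genes higher in mature seeds, 1750 (55.3%, and 51.3% of the 3412 higher in bent seeds) were also higher in bent seeds and 56 were lower there. Of the 3305 lower genes, 2149 (65%, and 47.6% of the 4511 lower in bent seeds) were also lower in bent seeds and 104 were higher. Calls were opposite and the interaction was called for 160 genes.

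Where the mean over the 12 libraries of both stages reached 100 normalised counts, the 3 genes with the largest positive difference, mature minus bent, were ABCG37, ALD1 and AT1G30700. ABCG37, a transporter that exports phenolic compounds from roots, had 3341, 1798 and 1655 normalised counts at 27 °C, against 236, 208 and 172 at 23 °C (3.46 ± 0.52) and changed by -0.63 ± 0.52 in bent seeds. ALD1, which makes pipecolic acid in defence, had 181, 106 and 103 normalised counts at 27 °C, against 53.8, 45.0 and 33.3 at 23 °C (1.56 ± 0.34), against -2.43 ± 0.34 in bent seeds. AT1G30700, a berberine-bridge enzyme, had 1082, 768 and 529.8 normalised counts at 27 °C, against 53.8, 35.3 and 54.6 at 23 °C (4.05 ± 0.51), against 1.60 ± 0.53. All 3 were separate between the groups in mature seeds. Their differences were 4.09 ± 0.73 (adjusted p 2.68e-06), 3.99 ± 0.48 (6.20e-14) and 2.45 ± 0.74 (0.0216). The 3 with the most negative difference were LAC3, a laccase, the lipid transfer protein AT3G22620 and AT5G39110, already described. LAC3 had 223, 491 and 437 normalised counts at 27 °C, against 1213, 1974 and 1805 at 23 °C in mature seeds, a change of -2.12 ± 0.88 that was not called (adjusted p 0.054), against 4.04 ± 0.89 in bent seeds (difference -6.15 ± 1.26, 7.30e-05). AT3G22620 had 622, 1133 and 847 normalised counts at 27 °C, against 1746, 2733 and 2791 at 23 °C (-1.48 ± 0.45), against 4.45 ± 0.46 in bent seeds (difference -5.94 ± 0.64, 2.83e-17).

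Mature seeds at 25 °C were not tested here because they share the control, and only their levels are given. FACT had 4778, 330 and 47.4 normalised counts in replicates 1, 2 and 3 at 25 °C, and CYP78A9 had 5708, 1458 and 411 normalised counts. In both genes replicate 1 stood between the libraries of 23 °C and 27 °C. By contrast, replicate 3 lay within the range of the 23 °C libraries for FACT and below that range for CYP78A9. AT2G39490 had 143, 9.20 and 2.37 normalised counts, with the same order. HSP17.4 had 85.3, 72.5 and 81.7 normalised counts and HSP90.1 had 1267, 1551 and 2265 normalised counts at 25 °C, closer to the control levels of 53.5 to 62.9 and 1276 to 1320 than to those at 27 °C, with replicate 3 of HSP90.1 the farthest above the control. CAB1 had 46173, 56428 and 61737 normalised counts, GER2 had 63248, 76047 and 106850 normalised counts and AT4G11180 had 569, 661 and 532 normalised counts, so that AT4G11180 lay within its range at 23 °C. The suberin genes together took 0.288, 0.18 and 0.149% of the counts in these libraries, replicate 1 again being the highest, and storage proteins took 15.6, 8.5 and 14.2%.

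**Figure D5:**
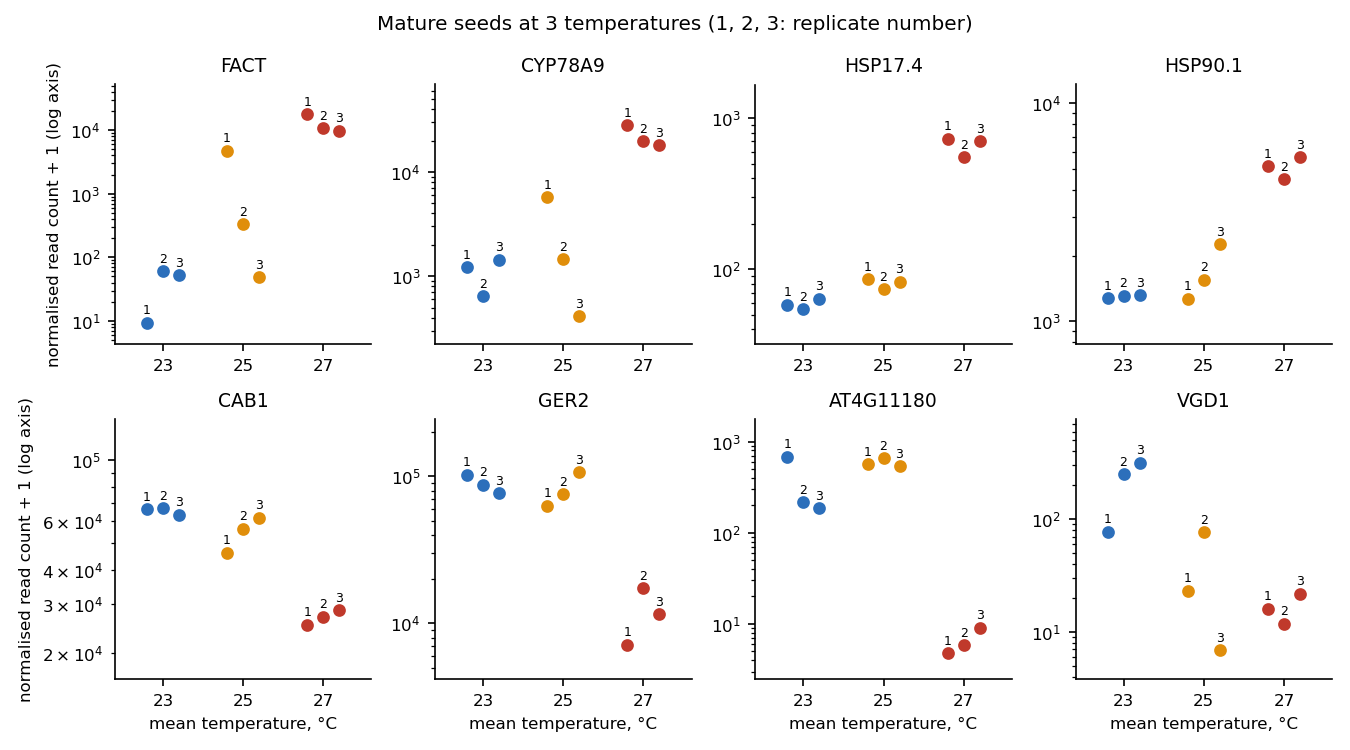
Normalised read count plus 1 on a log axis against mean temperature (23, 25 and 27 °C) in mature seeds for 8 genes, with 1 numbered point per replicate library. FACT and CYP78A9 spread over a wide range at 25 °C with replicate 1 highest, while HSP17.4 and HSP90.1 lie closer to their 23 °C than to their 27 °C levels there.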

How the data were processed

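The authors extracted RNA from whole seeds, had messenger RNA enriched and sequenced as short single-end reads, and estimated counts per Araport11 transcript with Salmon v1.2. The deposited table holds these estimated counts (expected counts), not normalised and with replicates apart, for 48268 transcripts. Salmon divides reads shared by similar transcripts by an estimate, which leaves near-identical and overlapping genes uncertain. The strand setting is not given in the sources used here. Every column was matched to 1 of the 27 libraries (0 unused). Labels and methods differ on the temperature before flowering, on the instrument and on whether mature seeds were dried.

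Estimates were summed per locus and rounded to whole numbers (27587 loci, 99.3% found in the RefSeq annotation of TAIR10.1). Total counts per library were 17227596 to 19445885. Low counts carry counting error beside the spread between libraries, and there were no molecular identifiers. DESeq2 1.42.0 in R 4.3.3 was fitted to all 27 libraries as 9 groups, without covariates, on 21445 genes that reached 10 counts in 3 or more libraries. Genes with a two-sided Wald adjusted p under 0.05 were called. The step was tested on simulated data. Shares and marker sums were compared by exact two-sided permutation. Alternatives were the quasi-likelihood test of edgeR 4.0.16, other normalisations, filters, thresholds and sets of libraries, a replicate block and leaving out each library.

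Genes were named by a rule: per direction, the 8 largest fold changes (mean of at least 100 normalised counts, no overlap) and the 5 largest differences in CPM. In each list up to 4 called members (mean of at least 30) were named, with the 3 largest differences from bent seeds per direction and 8 genes named in advance (ROS1, CMT3, DOG1, ABI3, ABI5, HSFA2, HSP101, CRU3). Further members were named after their values were seen, and 1 gene that met the rule is not reported here. The lists and the comparison were chosen with earlier results of these data known. Promoters were read from TAIR10.1.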

Additional observations from a re-analysis of the deposited data

Results flagged for a closer look

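The effect of 27 °C over 23 °C differed between mature and bent seeds, by the interaction term of the DESeq2 fit, for the following genes. Values are the difference, mature minus bent, of the log2 fold changes, and the adjusted p covers all 21445 genes tested. The libraries of both stages entered with n = 3 per group, and the causes were not tested.

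Among suberin genes the difference was -4.81 for CYP86A1 (adjusted p 3.03e-05), -4.44 for GPAT5 (8.87e-10), -3.72 for FAR5 (0.0197), -4.33 for RWP1 (1.46e-10), -1.94 for ABCG2 (0.0273) and -1.40 for CYP86B1 (0.046). Their factors MYB107 and MYB9 gave -4.08 (2.34e-17) and -5.21 (1.3e-10). The first 3 genes and ABCG2 and CYP86B1 had positive changes at both stages, and MYB107 had a positive one in bent seeds and a negative one in mature seeds.

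Among cell wall and seed coat genes, the germin-like genes AT5G39120, AT5G39110, GER2 and AT5G39160 gave -7.29 (4.72e-17), -5.95 (5.51e-07), -3.08 (2.66e-11) and -2.74 (2.53e-10). LAC3 gave -6.15 (7.3e-05), AT3G22620 gave -5.94 (2.83e-17), GATL5 gave -1.75 (6.63e-06), TT8 gave -0.59 (0.00198) and MUM2 gave -0.63 (0.0413). CESA5 gave 0.94 (1.08e-07), with a negative change in bent seeds and a positive one in mature seeds.

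Among endosperm genes ALE1 gave -1.64 (adjusted p 0.000232), SUC5 gave -0.92 (0.00133), RGE1 gave -0.97 (0.0107) and NCED6 gave -1.33 (4.65e-08).

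Among hormone, clock and defence genes LOX4 gave -2.93 (1.6e-07), LHY gave -1.43 (9.09e-05), PIF4 gave -1.10 (0.0412), GID1A gave -0.66 (0.000948), GTR1 gave -0.45 (0.0305) and PYR1 gave 0.58 (0.0463). ABCG37 gave 4.09 (2.68e-06), ALD1 gave 3.99 (6.2e-14) and AT1G30700 gave 2.45 (0.0216).

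Of the remaining genes RLP55 gave -2.63 (3.52e-07), GILT gave -1.80 (0.0256) and DML3 gave -1.52 (0.0177). AT1G17620 gave 1.84 (2.11e-06), STS gave 1.19 (0.0176) and AT1G53540 gave 3.62 (0.0314). APX2 gave 5.23 (0.0436), a fitted value that rests on libraries with 0 counts at 23 °C in mature seeds and is no measure of size.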

How the results depend on the processing

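Of 3163 higher and 3305 lower genes, the edgeR quasi-likelihood test called 3157 and 3164, a fit to the 6 libraries alone 3031 and 3154, scaling by library totals 2774 and 2471, and leaving out 2 libraries of other stages 3572 and 3992. With 1 library left out they ranged from 2342 to 2659 and from 2460 to 2850. Adding a threshold of 2-fold left 922 and 663. The interaction with bent seeds gave 703 genes at an adjusted p under 0.01 and 586 with that fold threshold, and the interaction with heart seeds gave 1910 and 1402. The mitochondrial share differed by 0.00716 percentage points, and by 0.00843 with DESeq2 normalised counts. Without replicate 1 at 27 °C the uncalled changes of CRU3 and MYB9 took the other sign (-0.16 and 0.051). Over the fits without 1 library these ranged from -0.16 to 0.22 for CRU3 and from -0.29 to 0.051 for MYB9. The share of higher among called genes was 48.9%, and 47.2 to 52.9% over other scalings and sets of libraries at the same threshold.

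Of 1178 counts of list members recomputed, 1034 stayed within 1.5 times. In the fit to the 6 libraries alone, endoplasmic reticulum chaperones gave 10 higher, jasmonate genes 11, storage proteins 5, oil genes 5, dormancy genes 5, desiccation genes 4 and maturation factors 2. In the same fit 114 ribosomal protein genes were lower. Of 154 called genes examined singly, 130 were called in every fit without 1 library and 81 in every alternative that gave them an adjusted p. The same replicate number did not pair the libraries (correlations of deviations -0.152, -0.105 and 0.0465), and with a replicate block 2735 genes were higher and 2825 lower. Genes of low count limit the fold changes: 64 of 116 higher and 146 of 175 lower genes past 8-fold had a mean under 30 normalised counts.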

Other observations

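Sugar supply and reserve mobilisation were followed as further lists. Of 5 sugar supply genes 1 was higher and 2 were lower (0 or 1 lower when any 1 library was left out). The cell wall invertase gene cwINV4, whose product splits sucrose outside the cell, had 148, 166 and 205 normalised counts at 27 °C, against 52.6, 90.0 and 52.3 at 23 °C (1.42 ± 0.27, adjusted p 2.60e-06), with the groups separate. Of 9 reserve mobilisation genes 1 was higher and 1 lower (2 without replicate 1 at 27 °C). Each is 11.1% of the list, against 14.75% and 15.41% of all genes.

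The genes called at 27 °C in mature seeds were set beside the change from bent to mature seeds at 25 °C, in libraries that do not enter the comparison. Of the 3163 genes higher at 27 °C, 1143 (36.1%) rose and 483 (15.3%) fell from bent to mature seeds. Of the 3305 lower genes, 644 (19.5%) rose and 1121 (33.9%) fell. Over all 21445 genes the shares were 23.4% and 22.5%. These are counts across genes, which are not independent replicates, and neither the embryo stage reached at harvest nor its part in the comparison was tested.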
